A study of Mus musculus with 768 samples.

Results

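Thymocytes of germline Tcf7 knockout mice were split by their counts of Pdlim4, a gene with 0 counts in wild-type (WT) cells of the same sort gate, to ask which knockout cells carry the genes that WT cells of that gate lack. Of 96 Tcf7-/- cells sorted through the DN2-3 gate, 93 had at least 1000 detected genes. These 93 cells held 56 Pdlim4-positive cells (2 or more Pdlim4 counts), 24 Pdlim4-negative cells (0 counts) and 13 cells with exactly 1 count, which belong to neither group. The 80 positive and negative cells are the members described here, of 675 cells kept and 768 cells measured in the series. Since the members were chosen by their Pdlim4 counts, the Pdlim4 difference between them is a description and supports nothing else.

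RNA was read from single cells sorted into 8 plates of 96 wells, from thymus of C57BL/6 mice aged 6 to 8 weeks. The groups used are the Tcf7-/- cells, from a germline knockout, cells with floxed Tcf7 (Tcf7fl/fl) deleted by Vav-cre, a recombinase that is active throughout the blood lineage, and WT cells. All 3 groups passed the same gate of CD45-positive thymocytes that were negative for lineage markers, CD4 and CD8 and positive for CD25. Single values are also given for the DN2-3 plates labelled as Tcf7 knockout by Lck-cre. Others are given for plates of the CD25-negative and CD44-positive DN1 gate, from WT, Tcf7-/- and Vav-cre mice. Each of the 3 main groups is 1 plate, and no animals are named, so genotype and plate cannot be told apart. Cells of 1 plate are not replicates of a condition: no test between groups of cells and no p-value is given, and every interval is an exact 95% interval for counting error only (reads amplified by PCR are not independent molecules).

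Tcf7 encodes TCF1, a DNA-binding factor that is switched on by Notch signals in early thymic progenitors and helps to install the T-cell programme. In the double-negative (DN) series, DN2 cells commit to the T lineage and DN3 cells rearrange the T-cell receptor beta chain, test it with the pre-T-cell receptor and then divide. Pdlim4 encodes an adaptor with a PDZ and a LIM domain that binds the actin cytoskeleton. Cd2 encodes an adhesion receptor of T and natural killer (NK) cells. Gpr83, a G-protein-coupled receptor gene, and Izumo1r, the folate receptor 4 gene, are both known as markers of regulatory T cells.

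The promoters of Pdlim4, which defines the split, and of Gpr83 and Izumo1r are shown because these genes gave no count in WT DN2-3 cells; that of Cd2 is not shown here. In mm10, Pdlim4 (ENSMUSG00000020388) lies on chr11:54054928-54069014, minus strand, on the same chromosome as Tcf7 (chr11:52252371-52283014, minus strand) and 1.77 Mb from it. Gpr83 (ENSMUSG00000031932, chr9:14860210-14870789, plus strand) and Izumo1r (ENSMUSG00000031933, chr9:14885814-14903949, minus strand) are neighbours on chromosome 9, with 15024 bases between them. Cd2 (ENSMUSG00000027863) lies on chr3:101275899-101287939, minus strand. The RefSeq sequences below (build GRCm38.p6) run 5′ to 3′ on the gene's strand from 250 bases before to 50 bases after the RefSeq start, in lower case. That start can differ from the GENCODE positions given above. For Izumo1r it lies inside the span given above, and so does the match marked in its window. Capitals mark matches, on either strand, to CTTTGA (the core of TCF and LEF sites), TGGGAA (RBPJ, the DNA-binding partner of Notch) or TGTGGT (Runx factors).
Pdlim4, chr11:54068968-54069267, minus strand: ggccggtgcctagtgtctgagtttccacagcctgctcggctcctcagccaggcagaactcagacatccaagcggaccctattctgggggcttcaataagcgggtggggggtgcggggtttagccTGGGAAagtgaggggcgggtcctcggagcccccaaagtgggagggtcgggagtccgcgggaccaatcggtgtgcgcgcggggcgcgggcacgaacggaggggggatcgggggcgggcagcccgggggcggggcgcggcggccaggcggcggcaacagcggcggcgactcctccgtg
Gpr83, chr9:14859960-14860259, plus strand: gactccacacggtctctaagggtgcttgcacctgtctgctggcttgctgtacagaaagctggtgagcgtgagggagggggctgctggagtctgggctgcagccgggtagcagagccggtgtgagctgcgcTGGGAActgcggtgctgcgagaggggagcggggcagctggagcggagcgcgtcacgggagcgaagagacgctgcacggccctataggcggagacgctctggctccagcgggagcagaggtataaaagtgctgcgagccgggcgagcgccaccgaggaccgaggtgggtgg
Izumo1r, chr9:14903718-14904017, minus strand: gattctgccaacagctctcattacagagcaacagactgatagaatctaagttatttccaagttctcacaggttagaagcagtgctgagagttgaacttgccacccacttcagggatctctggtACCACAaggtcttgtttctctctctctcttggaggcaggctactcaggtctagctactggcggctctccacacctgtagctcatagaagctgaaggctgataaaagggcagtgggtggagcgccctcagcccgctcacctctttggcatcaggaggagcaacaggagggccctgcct
The promoters of Pdlim4 and Gpr83 each held 1 match to TGGGAA, at bases 125 and 131 of the window, and that of Izumo1r held 1 match to TGTGGT, at base 124, on the opposite strand. None of the 3 windows held CTTTGA. Of 32851 promoters of the same length, 25.6% held TGGGAA, 16.8% held TGTGGT and 16% held CTTTGA, so such matches are common, and a match is a string of letters and not a shown site.

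The plates were sequenced to unequal depth, and so were the 2 sets of cells. The median Pdlim4-positive cell held 75724 counts (3026 to 334682) and 3761 detected genes, the median cell with 1 Pdlim4 count held 52594 counts (2247 to 220488), the median Pdlim4-negative cell held 55679 counts (9214 to 288248) and 3067 detected genes, and the median WT cell held 43592 counts (2091 to 264739). Every cell was therefore thinned at random to 20000 counts, which left out 4 positive cells, 1 cell with 1 count, 4 negative cells and 16 WT cells, and left 52, 12, 20 and 72. Levels below are summed thinned counts as CPM, the counts of a gene per 1000000 counts of the set, a scale with no gene length term, and log2 ratios carry a pseudocount of 10 CPM. A gene with 0 counts is bounded at 3 counts over the set, which is 2.88 CPM in positive, 7.5 CPM in negative and 2.08 CPM in WT cells.

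The labels were checked on the whole libraries. Tcf7 had 122 CPM in Tcf7-/- DN2-3 cells (interval 115 to 130), 964 CPM in the library labelled Vav-cre (936 to 994) and 862 CPM in WT cells (836 to 888). The Vav-cre label is therefore not matched by a lower Tcf7 level, and no source used here gives the deleted exons or the counted part of the transcript. Il2ra, which encodes the CD25 of the gate, had 2 or more counts in 93.5% of Tcf7-/-, 75% of Vav-cre and 68.2% of WT cells. The sex-linked genes differed too: Xist had 1 count in the Tcf7-/- library, 1097 in Vav-cre and 2414 in WT, while the Y-linked gene Eif2s3y had 552, 7 and 0 counts.

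Pdlim4 was spread over a wide range in the knockout cells. Pdlim4-positive cells held 2 to 219 counts of it before thinning, with a median of 23.5, and 41 of the 56 held 10 or more. Just inside the threshold stood 8 cells with 2 counts and 2 cells with 3, and just outside it stood the 13 cells with 1 count. After thinning, 92.3% of the positive cells still had a Pdlim4 count, at a median of 5 and a highest value of 22 per cell, so thinning alone emptied few of them. In whole libraries Pdlim4 had 1896 counts in Tcf7-/- DN2-3 cells and 1460 in Vav-cre DN2-3 cells, where 45 of 76 cells held 2 or more. It had 22 counts in Tcf7-/- DN1 cells, 38 in Vav-cre DN1 cells, 0 and 2 counts in the DN2-3 plates labelled Lck-cre, and 0 counts in both WT libraries. For 0 of 88 WT DN2-3 cells the share with a count can be as high as 3.41%.

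Genes absent from WT DN2-3 cells were not restricted to the Pdlim4-positive cells: Cd2, Gpr83 and Izumo1r were all present in the Pdlim4-negative cells as well. Cd2 per thinned cell lay between 0 and 14 counts in positive cells, with a median of 2.5, between 0 and 14 in cells with 1 Pdlim4 count, with a median of 1, between 0 and 10 in negative cells, with a median of 0, and at 0 in all 72 WT cells. The ranges of positive and negative cells overlap. Summed, Cd2 had 203 CPM in positive cells (176 to 232), 188 CPM in cells with 1 Pdlim4 count, 100 CPM in negative cells (71.4 to 136) and 0 counts in WT cells. The log2 ratio of positive over negative cells was 0.95, and the ratio without a pseudocount had an interval of 0.53 to 1.55 on the log2 scale. A Cd2 count was found in 73.1% of positive cells (59 to 84.4) and 45% of negative cells (23.1 to 68.5), so the intervals of the shares overlap.

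Gpr83 was not higher in Pdlim4-positive cells. Its counts per thinned cell ran from 0 to 22 in positive cells and from 0 to 23 in negative cells, with a median of 0 in both, and were 0 in every WT cell. The sums were 99 CPM in positive cells (80.8 to 120.1), 87.5 CPM in cells with 1 Pdlim4 count and 118 CPM in negative cells (86.3 to 156), a log2 ratio of -0.23 for positive over negative, with an interval of -0.76 to 0.28 for the ratio without a pseudocount. The share of cells with a count was 30.8% in positive cells (18.7 to 45.1) and 35% in negative cells (15.4 to 59.2). Without cycling cells, those with 2 or more counts of Top2a or Mki67, the log2 ratio was 0.68, so its direction is not stable.

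Izumo1r was the gene of the 3 with the largest log2 ratio. It ran from 0 to 22 counts per thinned cell in positive cells, with a median of 1, from 0 to 11 in negative cells, with a median of 0, and was 0 in WT cells. Summed, it had 138 CPM in positive cells (116 to 162), 4.17 CPM in cells with 1 Pdlim4 count (0.105 to 23.2), and 52.5 CPM in negative cells (32.5 to 80.3), a log2 ratio of 1.24 for positive over negative. A count was found in 51.9% of positive cells (37.6 to 66) and 25% of negative cells (8.66 to 49.1). In the negative set 1 cell held 11 of the 21 thinned Izumo1r counts, while the highest positive cell held 22 of 143. Before thinning, 1 negative cell, not the same one, held 69.1% of the counts of its set.

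**Figure D1:**
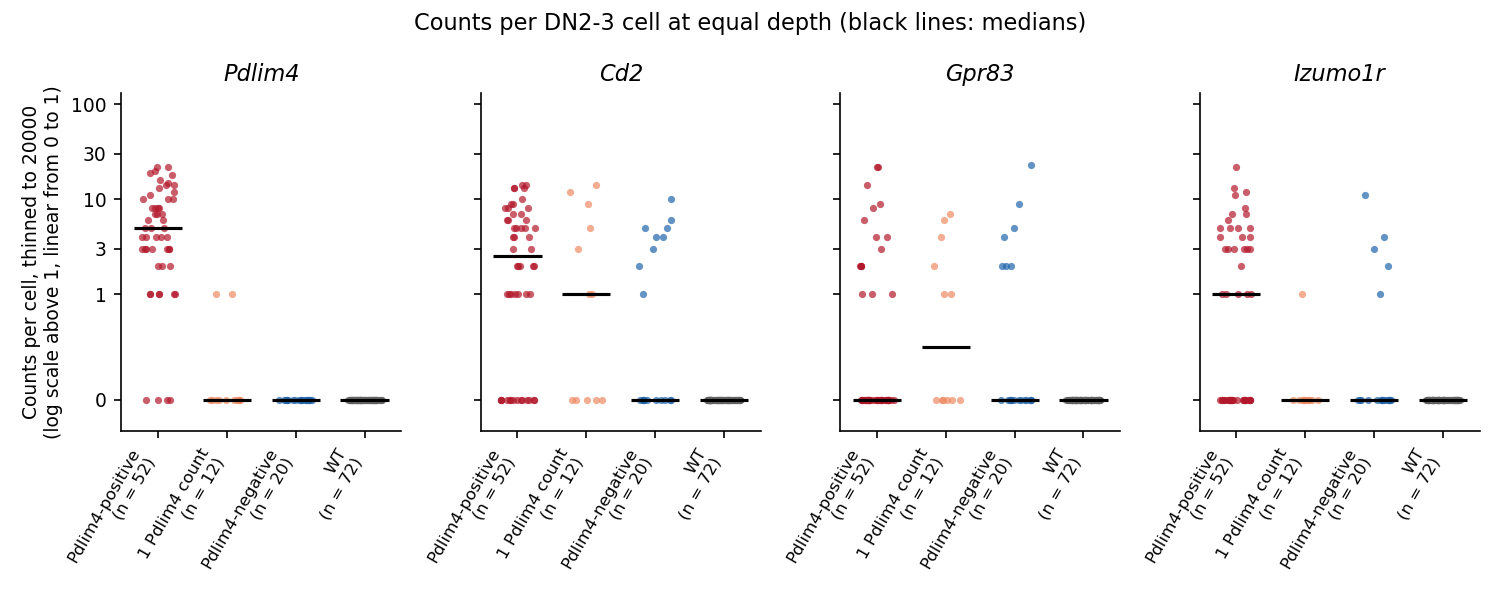
Counts per cell of Pdlim4, Cd2, Gpr83 and Izumo1r (y axis, log scale above 1) after thinning to 20000 counts, in Pdlim4-positive, 1-count and Pdlim4-negative Tcf7-/- DN2-3 cells and in WT DN2-3 cells, with 1 point a cell and a black line at the median. Negative cells reach 10 counts of Cd2, 23 of Gpr83 and 11 of Izumo1r, and all 72 WT cells stand at 0 for the 4 genes, which were taken for their 0 counts in WT.

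Among positive cells, levels were also compared between cells with more and with less Pdlim4. In the 40 thinned cells with 10 or more Pdlim4 counts, Izumo1r had 156 CPM (130.1 to 186), Gpr83 114 CPM (91.6 to 139.7) and Cd2 212 CPM (182 to 247). In the 12 thinned cells with 2 to 9 Pdlim4 counts, Izumo1r had 75 CPM (44.4 to 119), Gpr83 50 CPM (25.8 to 87.3) and Cd2 171 CPM (123 to 232). The Izumo1r and Gpr83 intervals do not overlap between these bins and the Cd2 intervals do, but 2 cells with 22 counts each held 44 of the 91 Gpr83 counts of the upper bin, and a Gpr83 count was found in 32.5% and 25% of the cells. On the Vav-cre plate the same bins had 214 and 192 CPM of Izumo1r and 211 and 233 CPM of Cd2. Gpr83 had 269.7 CPM (232 to 312) and 91.7 CPM (45.8 to 164) there, with 6 thinned cells in the lower bin. On the Tcf7-/- plate, cells with 1 Pdlim4 count did not sit between the bins and the negative cells in a fixed order. They had more Cd2 and less Izumo1r than the negative cells.

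Most knockout cells held at least 1 of the 3 genes whether or not Pdlim4 was counted. A thinned count of Cd2, Gpr83 or Izumo1r was found in 47 of 52 positive cells (90.4%, interval 79 to 96.8), 11 of 12 cells with 1 Pdlim4 count, 15 of 20 negative cells (75%, 50.9 to 91.3) and 0 of 72 WT cells, which allows a share of up to 4.17%. The 3 genes were taken for their 0 counts in this same WT library, so the WT share was fixed by that choice. The contrast with WT is a description only. All 3 genes together were found in 9 positive cells (17.3%) and 1 negative cell (5%). Of the 52 positive cells, 11 had both Cd2 and Gpr83 and 19 both Cd2 and Izumo1r. The neighbouring genes Gpr83 and Izumo1r were found together in 13 positive cells, while 3 had Gpr83 alone of the pair and 14 had Izumo1r alone.

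**Figure D2:**
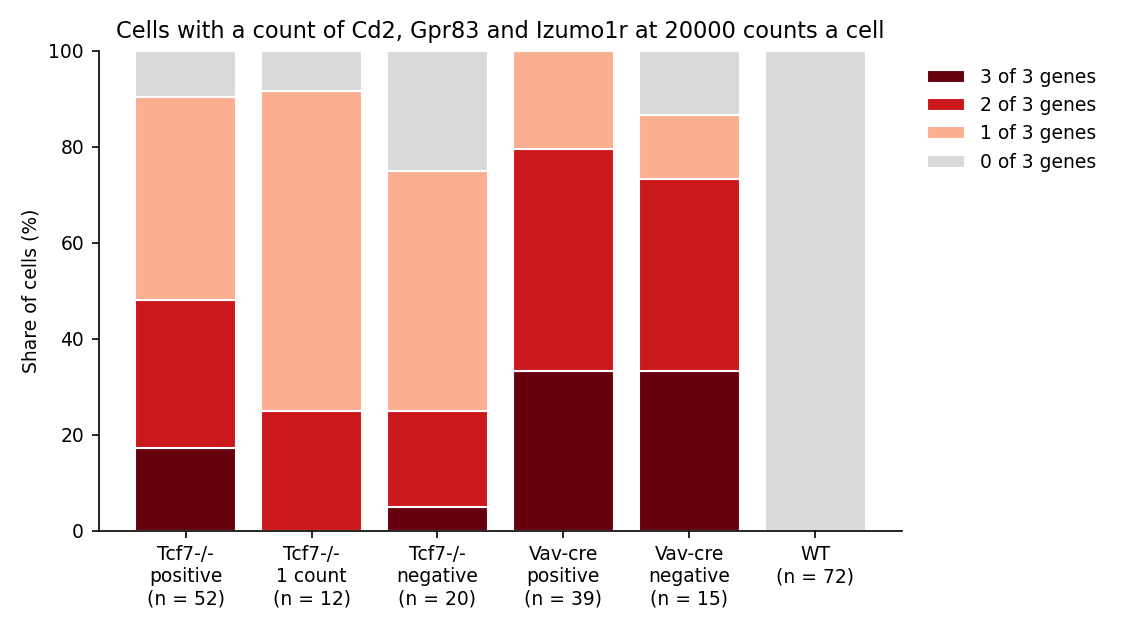
Share of thinned cells (y axis, percent) that held a count of 3, 2, 1 or 0 of the genes Cd2, Gpr83 and Izumo1r, in the Tcf7-/- sets, the Vav-cre sets and WT DN2-3 cells. At least 1 gene was found in 90.4% of Pdlim4-positive and 75% of Pdlim4-negative Tcf7-/- cells, in 100% and 86.7% of the Vav-cre cells, and in 0% of WT cells, the last being fixed by the choice of the genes.

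Genes concentrated in a few cells of the plate were also found at low counts in other cells. Gzmb, the granzyme B gene, had 363 of its 386 counts on the plate in 3 cells, and of the 90 other cells 18 (20%) held a count, none above 4. For Scin, an actin-severing protein gene, and Cpa3, the mast-cell carboxypeptidase gene, 11.5% and 9.09% of the other cells held a count, none above 2. Among the 24 negative cells before thinning, 9 had 2 or more counts of Cd2, 9 of Gpr83 and 4 of Izumo1r, with highest values of 81, 86 and 65 counts. On the plate Cd2, Gpr83 and Izumo1r had 1715, 765 and 635 counts, held by 65, 47 and 48 cells, against 386, 283 and 203 counts of Gzmb, Scin and Cpa3. The low counts of the latter therefore set no bound for the former. The source of the counts in negative cells was not tested.

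Beyond these 3 genes, 7 genes in all had at least 50 CPM in the Tcf7-/- DN2-3 library, a count in at least 10% of its cells and at most 3 counts in WT DN2-3 cells, besides Pdlim4 and the Y-linked Eif2s3y. All 7 had 0 counts in the kept WT cells, and all 7 had counts in negative cells. Only Izumo1r was at least 2-fold higher in positive cells, none was at least 2-fold lower, and 6 lay within 2-fold; of 8201 genes measured at 10 CPM or more in either set, 10.1% were at least 2-fold higher and 12.7% at least 2-fold lower. The number at least 2-fold higher ran from 0 to 3 of the 7 under other settings of depth, threshold or pseudocount and without the top cell of each gene. Necab1, a calcium-binding protein gene, had 119 CPM in positive cells (99.2 to 142) and 72.5 CPM in negative cells (48.6 to 104). Adam19, a membrane metalloprotease gene, had 80.8 CPM (64.4 to 100) and 85 CPM (58.9 to 119). Exoc3l4, a relative of exocyst subunit genes, had 46.2 CPM in positive and 67.5 CPM in negative cells, and the gene model Gm266, which lies on the same chromosome 12, had 77.9 and 122 CPM. With WT put at the floor of 3 counts over the set, the 7 genes stood 22.2-fold (Exoc3l4) to 97.4-fold (Cd2) higher in positive cells. In negative cells they stood 25.2-fold (Izumo1r) to 58.8-fold (Gm266) higher. Since the genes were chosen for 50 CPM or more in the knockout and at most 3 counts in WT, large folds follow from the choice. They are a description only.

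Counted per cell, at least 1 of the 7 genes was found in nearly every knockout cell. At least 1 of them had a thinned count in 52 of 52 positive cells, 12 of 12 cells with 1 Pdlim4 count and 18 of 20 negative cells (90%, interval 68.3 to 98.8), and in 0 of 72 WT cells, the last being what the choice of the genes fixed. The choice also asked for 50 CPM or more and a count in at least 10% of these same knockout cells. High shares in the knockout sets thus follow in part from the choice and are a description only. The median number of the 7 genes detected per cell was 3 in positive cells (1 to 7), 3 in cells with 1 Pdlim4 count (1 to 6) and 2.5 in negative cells (0 to 4). A single count of 1 gene is a weak sign. Before thinning, low counts of Gzmb, Scin and Cpa3 were found in 20%, 11.5% and 9.09% of the cells outside the few that held most of them. Eif2s3y had 76 CPM in positive and 62.5 CPM in negative cells, against 0 counts in WT. The Vav-cre library, with 7 Eif2s3y counts, held Pdlim4, Cd2, Gpr83 and Izumo1r at 333, 189, 234 and 214 CPM. With 1 plate a group, the sex-linked difference cannot be told apart from genotype and plate. Its part in the list absent from WT was not tested.

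"Absent" refers to this gate. In WT DN1 cells, the CD25-negative and CD44-positive gate, Cd2 had 448 CPM and Izumo1r 83 CPM, while Gpr83 and Pdlim4 had 0 counts. Tcf7-/- DN1 cells had 184 CPM of Cd2 and 47.8 CPM of Izumo1r, against 5.29 CPM of Pdlim4 and 2.64 CPM of Gpr83.

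Before thinning, 5 of the 24 negative cells held none of Cd2, Gpr83 and Izumo1r, against 4 of the 56 positive cells. The 4 positive cells were mostly shallow, with a median of 18303 counts, while the 5 negative cells had a median of 75672. These 5 cells did not look alike, and 3 of them held 5 or more counts of Cpa3, Scin or Gzmb. Those 3 held 28, 91 and 1 counts of Fabp5, 12, 76 and 0 of Lef1 and 0, 1 and 1 of the 7 genes. The other 2 held 47 and 148 counts of Fabp5, 100 and 33 of Lef1 and 3 and 2 of the 7 genes. The ranges of Fabp5 and Lef1 thus overlap between the 3 cells and the other 2.

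A set of 6 T-lineage and metabolic genes, chosen after their values were seen, stood apart from WT in both knockout sets. Fabp5, a fatty-acid carrier gene, had 944 CPM in positive cells (886 to 1005), 710 CPM in negative cells (629.8 to 798) and 47.9 CPM in WT cells. Ptcra, which encodes the partner of the beta chain in the pre-T-cell receptor, had 698, 755 and 190.3 CPM in the same order, and Dtx1, a Notch target gene, had 377, 330 and 43.1 CPM. Lef1, the related factor of the TCF family, had 893 CPM in positive, 940 CPM in negative and 359 CPM in WT cells, and Tcf7 itself had 134, 125 and 942 CPM. Dntt, which adds nucleotides at receptor joints, had 1114, 1085 and 3312 CPM. For these 6 genes the positive and negative sets lay within 2-fold of each other, at log2 ratios from -0.11 to 0.41, and both stood at least 2-fold away from WT.

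**Figure D3:**
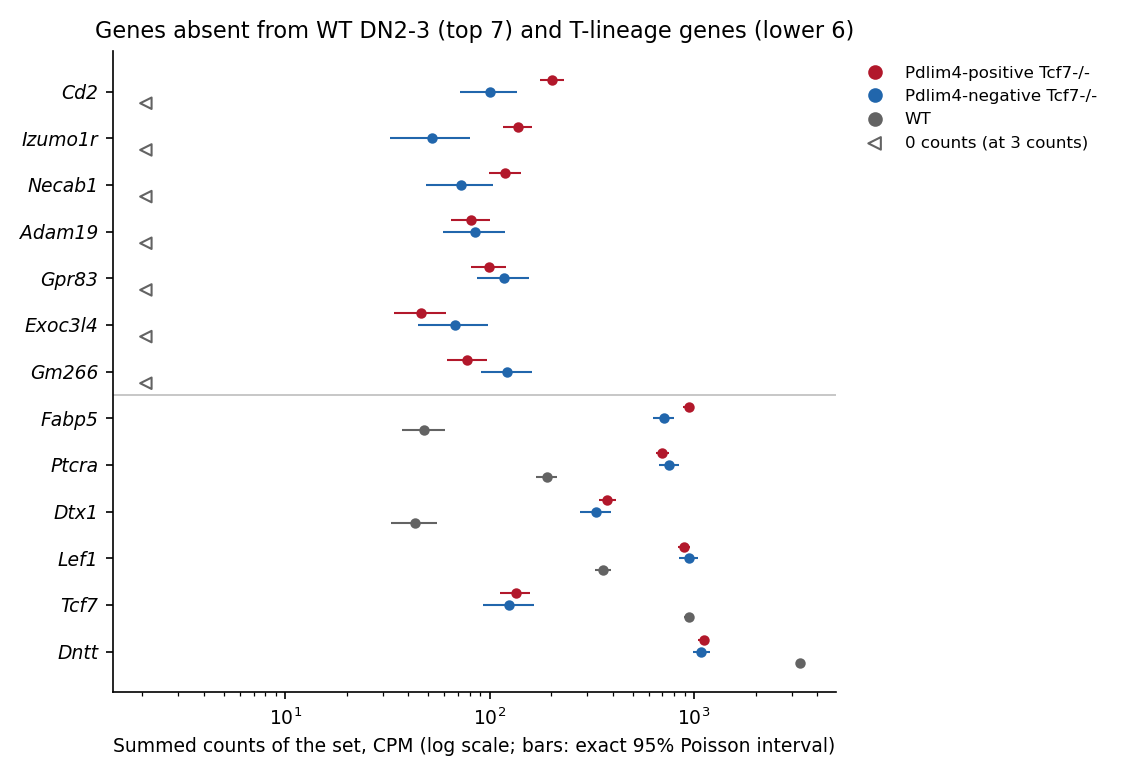
Summed level (x axis, CPM, log scale, with exact 95% Poisson intervals) in Pdlim4-positive Tcf7-/-, Pdlim4-negative Tcf7-/- and WT DN2-3 cells, for the 7 genes absent from WT (upper) and 6 T-lineage and metabolic genes (lower). Open triangles stand at the floor of 3 counts where a set had 0; Cd2 and Izumo1r intervals of the positive and negative sets do not overlap, and those of Tcf7, Lef1 and Dntt do.

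Across all genes, each knockout set was also set against WT. Negative over WT, 9.75% of 8612 measured genes were at least 2-fold higher and 18.6% at least 2-fold lower. Positive over WT, which shares the WT cells, 5.37% of 8287 genes were at least 2-fold higher and 14.6% at least 2-fold lower. For the higher genes these shares are no larger than the 10.1% between the 2 knockout sets, and the negative set has the larger counting error. The median log2 ratio over all genes was -0.09 for negative over WT and -0.17 for positive over WT.

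Between positive and negative knockout cells, 832 genes were at least 2-fold higher and 1039 at least 2-fold lower. Those numbers rest on few cells a gene: once each gene lost its top cell in each set, 17.8% were higher and 7.09% lower, in place of 10.1% and 12.7%. The number of higher genes was 534 without thinning and 1795 without cycling cells. Gene lists for stages and processes were read as counts and medians beside the median of -0.05 over all genes.

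Genes of DNA replication stood highest. Of 21 S phase genes, all measured, 20 had a log2 ratio above 0, with a list median of 0.72. The number at least 2-fold higher in positive cells was 4, against 10.1% of all genes, and none was 2-fold lower. Uhrf1, which maintains DNA methylation at replication, had 287 CPM in positive cells (255 to 321) and 112 CPM in negative cells (82.1 to 151). Mcm3, a helicase subunit gene, had 171 and 62.5 CPM, and Pcna, the polymerase clamp gene, 499 and 265 CPM. Pcna was counted in 94.2% of positive cells and 60% of negative cells. Per thinned cell, the list summed to a median of 61 counts in positive cells (10 to 245) and 23.5 in negative cells (9 to 175), so the sets overlap over most of their range.

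Mitosis genes were less uniform. Of 23 measured G2 and M phase genes, 17 lay above 0, with a median of 0.31. The number at least 2-fold higher was 3, near the share of 10.1% of all genes, and none was 2-fold lower. Cenpa, the centromere histone gene, had 228 CPM in positive cells (199.8 to 259) and 85 CPM in negative cells (58.9 to 119), but its ratio was -0.23 when cells were thinned to 10000 counts. Top2a had 239 and 235 CPM and Mki67 had 91.3 and 145 CPM. Cells with 2 or more thinned counts of Top2a or Mki67 made up 25 of 52 positive cells (48.1%, interval 34 to 62.4), 6 of 20 negative cells (30%, 11.9 to 54.3) and 19 of 72 WT cells (26.4%). Among ribosome-making and Myc-linked genes, 12 of 16 lay above 0 with a median of 0.34, and Odc1, the polyamine synthesis gene, had 91.3 CPM in positive and 27.5 CPM in negative cells. Depth moves with this difference: before thinning the median positive cell held 75724 counts and the median negative cell 55679. Its part in the difference was not tested beyond thinning.

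Genes of the T-cell receptor lay mostly within 2-fold, and those of the Notch pathway lay mostly below 0. All 5 genes of the pre-T-cell receptor and CD3 complex had ratios below 0 and none was 2-fold apart, with a median of -0.35; Cd3g, for example, had 1925 CPM in positive and 3318 CPM in negative cells. Of 8 measured Notch receptor and target genes, 1 had a ratio above 0, with a median of -0.34. The number at least 2-fold lower was 2, against 12.7% of all genes, and none was 2-fold higher. In Vav-cre cells none of 7 lay above 0, 1 was at least 2-fold lower, against 16.6% of all genes, and the median was -0.53. Hes1, a Notch target, had 218 CPM in positive cells (191 to 249), 578 CPM in negative cells (505 to 657) and 472 CPM in WT cells, and the receptor gene Notch3 had 46.2 CPM in positive and 128 CPM in negative cells. The ratio of Hes1 was -1.36, and -0.08 on the deposited log2 values. Il2ra had 413 CPM in positive and 760 CPM in negative cells, a log2 ratio of -0.86, while Dtx1 had a ratio of 0.19. Of 13 measured T-lineage factors none was 2-fold apart (median -0.20). Of 16 genes of proximal receptor signalling 2 were higher, against 10.1% of all genes, and 1 was lower, against 12.7% (median -0.16). Among the higher was Zap70, the kinase recruited by the activated receptor, at 121 CPM in positive and 50 CPM in negative cells. Among genes of the later CD4 and CD8 double-positive stage, 1 of 11 was at least 2-fold higher and 2 lower (median -0.07). The shares of all genes were 10.1% and 12.7%. The higher one of the 11 was Cd8a, at 46.2 CPM in positive cells (34 to 61.2) and 7.5 CPM in negative cells (1.55 to 21.9), the latter at the floor of 3 counts. The Cd8a log2 ratio of 1.68 was 0.72 without thinning and 0.22 on the deposited log2 values. It was at least 2-fold under 13 of 14 alternatives on the counts. Cd4 had 1.92 CPM in positive and 0 counts in negative cells.

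Of 10 immediate-early genes, 3 were at least 2-fold lower in positive cells, against 12.7% of all genes, and none was higher, with a median of -0.60. Jun had 21.2 CPM in positive and 82.5 CPM in negative cells, and Ier2 had 32.7 and 100 CPM. Without the cells with 5 or more counts of Cpa3, Scin or Gzmb, the log2 ratio of Jun was -0.47, in place of -1.57. For Fos, at 16.3 and 62.5 CPM, 1 cell held all the unthinned counts of the negative set, and leaving out the top cell of each set gave a ratio of 0.80.

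Some of the genes furthest below were held by a few cells that had few counts of the genes absent from WT. Before thinning, 5 negative cells held 5 or more counts of Cpa3, Scin or Gzmb, against 3 positive cells and 45 of 88 WT cells. Those 5 cells held 0 counts of Gpr83 and of Izumo1r and 0 to 7 counts of Cd2. Gzmb had 5.77 CPM in positive cells and 255 CPM in negative cells, Scin had 1.92 and 170 CPM, and Cpa3 had 8.65 and 135 CPM, while WT cells had 6.94, 91 and 329.9 CPM of the 3 genes. Nkg7, a cytotoxic granule gene, had 103 CPM in positive cells (84.3 to 124), 645 CPM in negative cells (569 to 729) and 458 CPM in WT cells, and was counted in 50% and 55% of the knockout sets. The cells with 5 or more counts of Cpa3, Scin or Gzmb were also left out, a choice made after the values were seen. The log2 ratio was then 0.68 for Gzmb, -0.13 for Scin and -0.44 for Cpa3, the genes that define those cells. For Nkg7 it was -1.97, in place of -2.54, so those cells do not hold most of the Nkg7 difference. A thinned count of Cd2, Gpr83 or Izumo1r was found in 13 of the 16 negative cells that remained (81.2%, interval 54.4 to 96).

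Besides these granule genes, some markers of other cell types were near 0 in both sets and others were not. Foxp3 had 0 counts in both, Kit had 0.962 CPM in positive and 0 counts in negative cells, and Cd44 had 0.962 and 5 CPM. Of 20 DN2 and early progenitor genes, 14 had 10 or fewer counts on the whole plate, and the list summed to 0 to 9 counts in positive and 0 to 39 in negative cells. Of 12 B-cell genes 11, of 19 myeloid and dendritic genes 12, of 10 erythroid and mast-cell genes 7 and of 10 stromal genes 7 had 10 or fewer counts on the plate. The B-cell list summed to 0 to 10 counts per thinned positive cell and 0 to 24 per negative cell, and the myeloid list to 0 to 16 and 0 to 21. Of 22 NK and innate lymphoid genes 9 had 10 or fewer counts, and the list summed to 4 to 196 counts per positive cell and 9 to 455 per negative cell. In 7 measured genes 1 was at least 2-fold higher and 3 lower (median -0.32), against 10.1% and 12.7% of all genes. Mature and regulatory T cells are the setting in which Gpr83 and Izumo1r are best known. Of 11 measured genes of these cells, none was at least 2-fold higher in positive cells, with a median of -0.66. The number at least 2-fold lower was 3, against 12.7% of all genes. In Vav-cre cells this list went the other way, with 9 of 11 measured genes above 0 and a median of 0.40. There 2 were at least 2-fold higher, against 18.5% of all genes, and 1 was lower, against 16.6%. The part of the cell types named here in the differences was not tested.

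**Figure D4:**
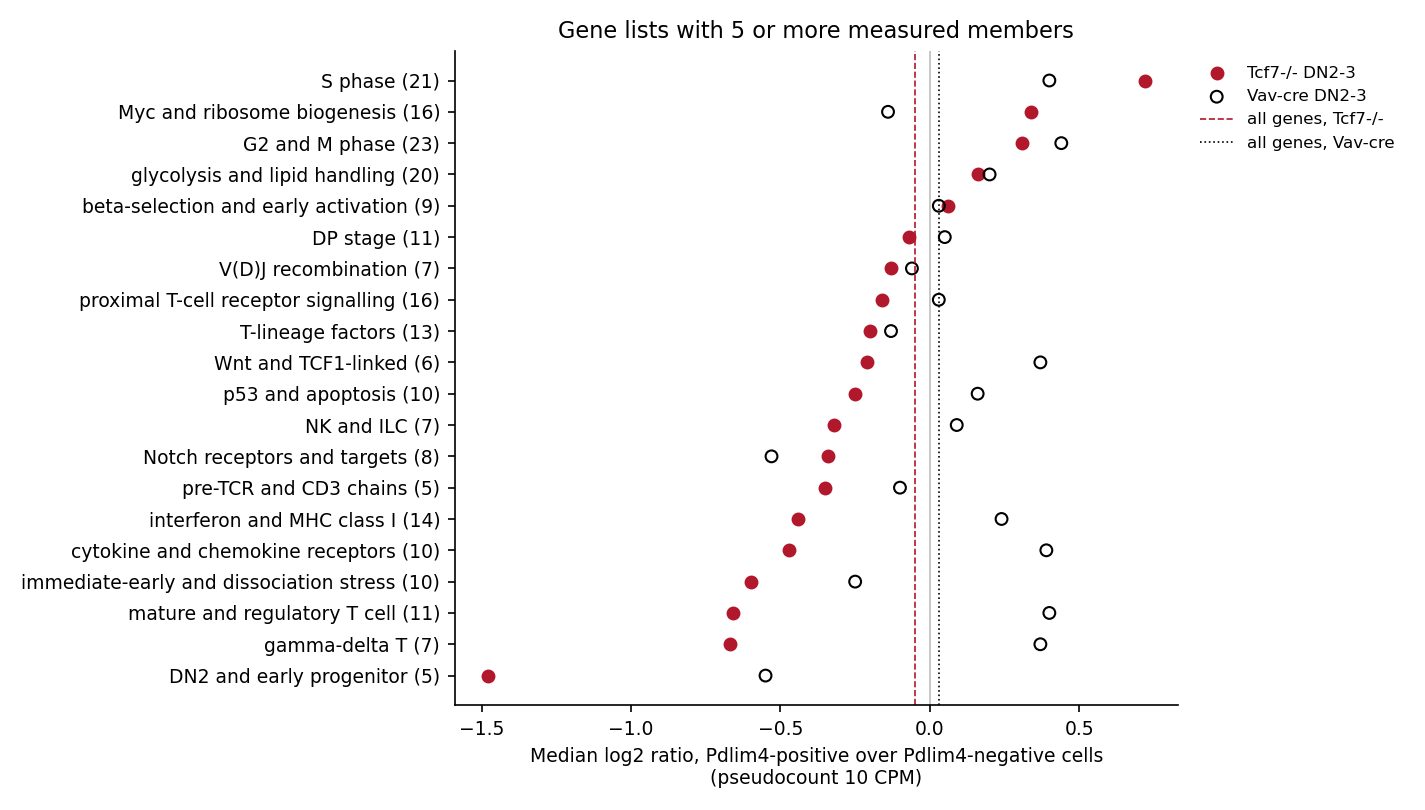
Median log2 ratio of Pdlim4-positive over Pdlim4-negative cells (x axis) for each gene list with 5 or more measured genes (number in brackets, for Tcf7-/-), in Tcf7-/- DN2-3 cells (filled) and in Vav-cre DN2-3 cells (open), with dashed and dotted lines at the medians of all genes, -0.05 and 0.03. S phase genes are highest in Tcf7-/- at 0.72 and stand at 0.40 in Vav-cre, and DN2 and early progenitor genes, with 5 measured, stand at -1.48 and -0.55; the -1.48 was 0.18 without the cells with Cpa3, Scin or Gzmb.

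The genes with the largest ratios were of mixed function. The 12 highest were Cdc27, Scml4, Derl2, Mrpl45, Arl6ip6, Esco2, Pttg1, Sat1, Nop16, Nsmce2, Wdr76 and Tuba1c, with log2 ratios from 2.65 to 2.20. Cdc27 is a subunit gene of the complex that triggers chromosome separation. It had 52.9 CPM in positive cells (39.8 to 68.8) and 0 thinned counts in negative cells. Its log2 ratio of 2.65 was 1.25 without thinning, 1.97 with another seed and 0.64 when cells were thinned to 10000 counts. Pttg1, which encodes securin, the protein that holds separation back, had 100 CPM (81.7 to 121) and 12.5 CPM (4.06 to 29.2). Mrpl45, a mitochondrial ribosome gene, had 196 CPM in positive and 30 CPM in negative cells. All 12 were also counted in WT cells, and for 10 of them the positive cells lay within 2-fold of WT.

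The 12 lowest were Scin, Snx14, Slc25a13, St8sia4, Tmem203, Nkg7, Ap3d1, Ifitm2, Scap, Esyt2, Fbxw7 and Cnnm3, with log2 ratios from -3.92 to -2.23. Snx14, a sorting nexin gene, had 2.88 CPM in positive cells (0.595 to 8.43) and 170 CPM in negative cells (132 to 216). Fbxw7, a ubiquitin ligase component that marks Notch and Myc proteins for destruction, had 28.8 CPM (19.5 to 41.2) and 172 CPM (134 to 218), and 31.9 CPM in WT cells. For 5 of the 12 the positive cells lay within 2-fold of WT. Snx14 had 46.5 CPM in WT cells. Each of these genes was counted in 20% to 55% of the negative cells, so a small number of the 20 cells sets each level.

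The same rule was applied to the Vav-cre DN2-3 library as a second plate that shares no cell with the first. It gave 45 positive and 23 negative cells, of which 39 and 15 reached 20000 counts. Of 8137 measured genes, 18.5% were at least 2-fold higher and 16.6% at least 2-fold lower in positive cells, more than on the Tcf7-/- plate with its larger sets. Here too the genes absent from WT were found in both sets. Cd2 had 214 CPM in positive cells (183 to 249) and 93.3 CPM in negative cells (62 to 135), a log2 ratio of 1.12. Izumo1r had 210.3 CPM (179 to 245) and 143 CPM (104 to 193), a ratio of 0.52, and Gpr83 had 242 CPM (209 to 279) and 627 CPM (540.3 to 723), a ratio of -1.34. Of the 3 genes Cd2 thus had the same sign and close to 2-fold in both plates, Izumo1r had the same sign, and Gpr83 was not higher in positive cells on either plate. At least 1 of the 3 genes was found in 39 of 39 positive cells and 13 of 15 negative cells (86.7%, interval 59.5 to 98.3).

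Among genes at 50 CPM or more, the differences seen again were near the share of all genes for the higher ones and above it for the lower ones. Among 3230 genes at 50 CPM or more in a set on both plates, 170 were at least 2-fold higher in Tcf7-/- positive cells, and 86 of these (50.6%) were above 0 in Vav-cre, as were 52% of all 3230. A 2-fold difference in the same direction was found in 20 of the 170 (11.8%), against 11.3% of all. Of 231 genes at least 2-fold lower, 123 (53.2%) were below 0 in Vav-cre, against 47.9% of all, and 41 (17.7%) were at least 2-fold lower, against 9.47% of all. The contrast between higher and lower genes was not seen among the 7157 genes at 10 CPM or more. There 21.5% of the higher genes were 2-fold higher in Vav-cre too, against 17.5% of all. Of the lower genes 19% were 2-fold lower in Vav-cre too, against 14.3% of all. Scin and Cpa3 were among those lower on both plates, with Vav-cre ratios of -1.82 and -2.35, and Gzmb was not, at -0.09. Of the 12 highest genes 10 had the same sign in Vav-cre and 3 were at least 2-fold higher there (Sat1, Nsmce2 and Tuba1c), and of the 12 lowest 3 had the same sign and 1, Scin, was 2-fold lower. The S phase list had a median of 0.40 in Vav-cre, with 16 of 21 genes above 0, and the G2 and M phase list 0.44, with 12 of 22 above 0. The immediate-early list had -0.25 with Fos at 3.53, and the Myc and ribosome list -0.14.

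**Figure D5:**
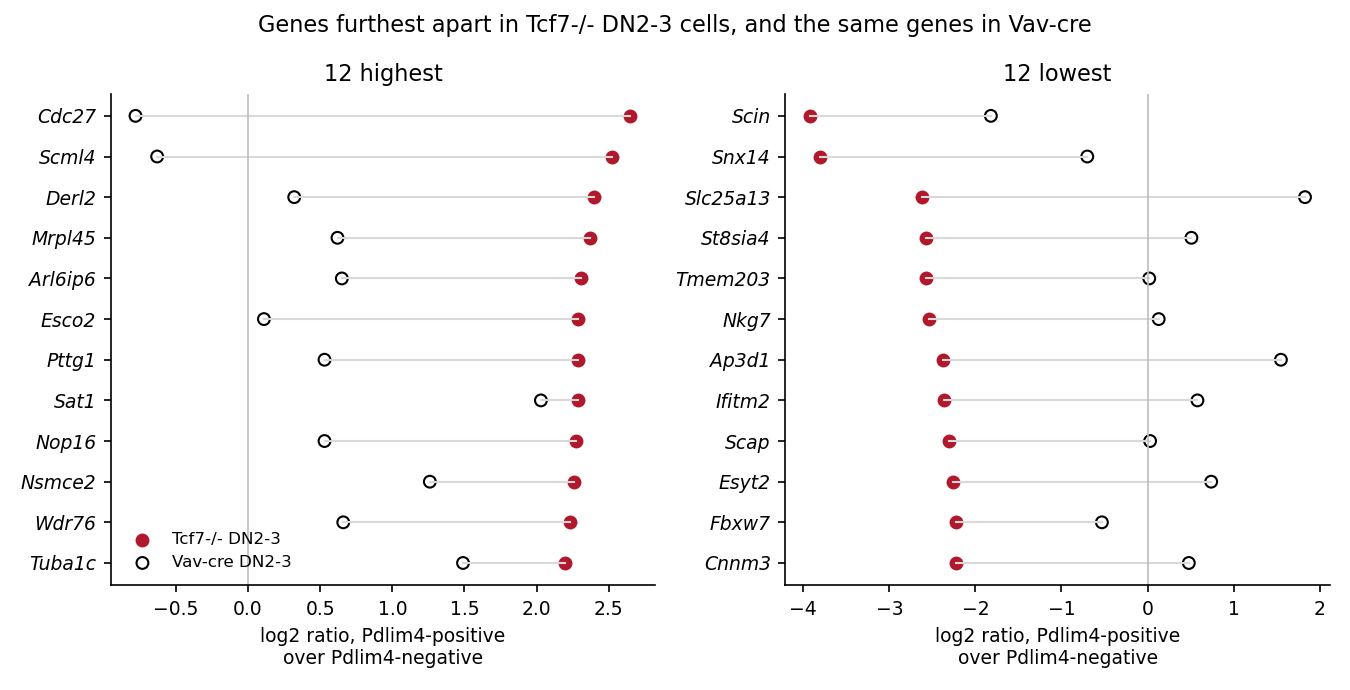
Log2 ratio of Pdlim4-positive over Pdlim4-negative cells (x axis; the panels have different scales) of the 12 highest and 12 lowest genes of the Tcf7-/- plate (filled), with the same genes on the Vav-cre plate (open). In Vav-cre 10 of the 12 highest keep their sign and 3 of the 12 lowest do.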

How the data were processed

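Single thymocytes were measured on 8 plates of 96 cells with a modified STRT protocol, per the labels, which also name Smart-seq2 for the libraries. Per the submitters' processing notes, TopHat2 2.1.1, HTSeq and the build mm10 were used, with GRCm38 named as well for the plates other than Tcf7-/-; whether molecular identifiers were collapsed is not given in the sources used here. The authors' deposited files are a table of unnormalized counts, with genes as lines and cells as columns, and a second table of log2 values, log2(TPM/10 + 1), used here only as an alternative. Of 23154 entries in the count table, 27 carried a date in place of a gene symbol (0.141% of counts) and were dropped, and every column matched a labelled cell. Library totals over kept cells ran from 1547512 to 8371808 counts.

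Cells with 1000 or more detected genes were kept. Cells were thinned to 20000 counts with a seed fixed per cell, and shallower cells were left out. Counts were summed per set, scaled to CPM and compared as log2 ratios with a pseudocount of 10 CPM. A gene was measured at 10 CPM or more in either set, and at least 2-fold apart is a log2 ratio of 1 or more on that scale. No test across cells was run, because each group is 1 library. Poisson, conditional binomial and Clopper-Pearson intervals (95%) cover counting error only, and a share or level at 0 is bounded at 3 cells or counts. Wells held single sorted cells and no doublet caller was run. Python 3.11.15, pandas 2.3.3 and scipy 1.17.1 were used. The computation was tested on simulated data.

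The 12 highest and 12 lowest genes had 50 CPM or more and a count in at least 20% of cells in the higher set, the same sign without thinning, and no cell with over 50% of that set's counts. This choice passed over unnamed gene models and sex-linked genes such as Xist. Members of 24 gene lists (363 of 366 genes in the table) at least 2-fold apart could be named, up to 4 a list; genes named beside them within 2-fold, and the genes of cells with Cpa3, Scin or Gzmb, were chosen after their values were seen. The members, the lists and the rule were chosen with earlier results of these data known. The Vav-cre comparison and the removal of cells with Cpa3, Scin or Gzmb were added after seeing the data. Gene positions are from GENCODE vM21.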

Additional observations from a re-analysis of the deposited data

How the results depend on the processing

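Each value was recomputed under 14 alternatives on the counts, and single genes also on the deposited log2 values. Of the values for single genes, 1067 stayed within the counting interval of the reported one, 87 moved beyond it and 16, of genes at least 2-fold apart, changed sign; for lists 315 stayed within 0.5, 19 moved and 1 changed sign. In place of 832 genes at least 2-fold higher in Pdlim4-positive cells, 534 were higher without thinning, 1795 without cycling cells (18 positive and 12 negative cells were left) and 1327 with a pseudocount of 1 CPM. In place of 1039 lower genes, 478 were lower without each gene's top cell, which moved the median of all genes to 0.13, and 1560 with a pseudocount of 1 CPM. For Pdlim4-negative cells over WT, in place of 840 higher genes, 418 were higher without each gene's top cell and 1296 with a pseudocount of 1 CPM. Of the 7 genes absent from WT, in place of 1, the number at least 2-fold higher in positive cells was 2 without thinning, at 40000 counts, with positive cells at 10 or more Pdlim4 counts, at 2000 or more detected genes, with counts of 1 to 5 set to 0 and with a pseudocount of 1 CPM, 3 without each gene's top cell, and 0 with positive cells at 1 or more Pdlim4 counts. The log2 ratio of Cd2 was 1.73 with counts of 1 to 5 set to 0 and otherwise ran from 0.79, above 0 under all 14 alternatives on the counts, as was that of Izumo1r (0.58 to 1.78). Gpr83 was at 0.68 without cycling cells and kept its sign in 8 of 14.

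Values of the opposite sign were, without the cells with Cpa3, Scin or Gzmb (an alternative chosen after seeing the data), 0.18 for Ly6a, 0.19 for Blk, 0.68 for Gzmb, 1.43 for Fos and 0.18 for the median of DN2 and early progenitor genes; without cycling cells, -0.54 for Cd5 and 0.64 for Gimap3; at 40000 counts, 0.07 for Icos and 0.31 for Irf7; at 10000 counts, -0.23 for Cenpa and 1.29 for Sqle; with another seed, 0.16 for Blk and 0.17 for Sqle; on the deposited log2 values, 0.02 for Fos and 0.25 for Sqle; without thinning, 0.08 for Sqle; and without each gene's top cell, 0.80 for Fos. The cause was not tested. No paired analysis was possible because no result comes from a test and the shared numbers are well barcodes. The number of thinned cells sets the limit of a level at 0: 3 counts are 2.88 CPM in positive, 12.5 CPM in 1-count, 7.5 CPM in negative and 2.08 CPM in WT cells.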

Other observations

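At 50 CPM or more in a set, 19 named genes were at least 2-fold higher and 41 at least 2-fold lower in Pdlim4-positive cells on both the Tcf7-/- and the Vav-cre plate. Unnamed gene models included, the higher ones were 11.8% of those 2-fold higher in Tcf7-/-, against 11.3% for all genes at this level on both plates. At this level the higher ones thus recurred about as often as any gene, and the lower ones were 17.7%, against 9.47%. At 10 CPM or more the shares were 21.5% against 17.5% for higher and 19% against 14.3% for lower genes. The examples below were chosen after their values were seen, and no test bears on them. Among the higher were Prim1, the primase gene, with 127 CPM in Tcf7-/- positive and 37.5 CPM in negative cells (log2 ratio 1.53, and 3.08 in Vav-cre), Timeless, a replication fork gene, with 54.8 and 12.5 CPM (1.53, and 1.17 in Vav-cre), and Cenph, a centromere gene, with 86.5 and 17.5 CPM (1.81, and 1.85 in Vav-cre). Prim1 was counted in 55.8% of positive and 15% of negative Tcf7-/- cells, and its ratio without thinning was 0.52. Odc1 had a ratio of 1.43 in Tcf7-/- and 1.49 in Vav-cre.

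Among the lower was Dynll2, a dynein light chain gene, with 26 CPM in positive and 130 CPM in negative Tcf7-/- cells (log2 ratio -1.96, and -2.56 in Vav-cre). Dynll2 was counted in 19.2% of positive and 45% of negative Tcf7-/- cells. Il2ra, which encodes the CD25 of the gate, had a ratio of -0.86 in Tcf7-/- and -0.82 in Vav-cre.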
